A study of Mus musculus with 31 samples.

Results

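The genes of the Ikaros family were followed here in chromatin accessibility data from mouse regulatory T cells (Tregs). The family has 5 members, and a peak was taken as a member peak when the deposited annotation lists Ikzf1, Ikzf2, Ikzf3, Ikzf4 or Ikzf5 among its genes. This gave 94 of 104979 peaks, of which 40 belong to Ikzf1, 38 to Ikzf2, 11 to Ikzf3, 4 to Ikzf4 and 1 to Ikzf5. The assay was ATAC-seq, in which the Tn5 transposase cuts DNA where chromatin is open, so that the number of reads at a site measures how accessible it is. Tregs had been sorted from spleens of C57BL/6 mice carrying an RFP-FoxP3 reporter. The animals had received 20 µg of the fusion protein FP (mIL-2/CD25), 5 µg of mouse IL-2 (mIL-2, here IL2) or 100 µL of PBS. Libraries numbered 3 in each group of FP, IL2 and PBS at 0.75 h and again at 16 h. They numbered 3 for FP and 3 for PBS at 72 h, and 4 for FP and 3 for PBS at 168 h, 31 in all. All groups therefore share the strain, the reporter and the tissue, and the labels give no age and do not say whether each library came from its own animal. The p-values then measure the spread between these libraries, which may be technical in part. On GRCm38 the genes are Ikzf1 at chr11:11685003-11772926 on the plus strand, Ikzf2 at chr1:69531214-69687245, Ikzf3 at chr11:98464902-98546031, Ikzf4 at chr10:128630843-128645991 and Ikzf5 at chr7:131388652-131410521, these 4 on the minus strand.

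Ikaros family proteins are zinc finger transcription factors that bind DNA through one group of fingers and pair with each other through a second group. Ikaros (Ikzf1) is needed for lymphocyte development, Helios (Ikzf2) is abundant in Tregs and helps to keep them stable, and Aiolos (Ikzf3) is best known in B cells and helper T cells. Eos (Ikzf4) works with Foxp3 in silencing genes in Tregs, and Pegasus (Ikzf5) is the most distant relative. IL-2 signals through STAT5, and paired STAT5 proteins prefer the letters TTCNNNGAA, where N is any base.

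Library totals ran from 7385040 to 59647438 counts. A single peak held 14.98% to 32.17% of a library's counts. FP replicate 2 and PBS replicate 1 at 168 h were the shallowest libraries of all, with 12316912 and 7385040 counts. Levels are given as CPM, a peak's counts scaled to one common library size with TMM adjustment, and differences as log2 fold changes with their SE. Foxp3 marks the sorted cell type, and both peaks listed for it were open in every library. They had at least 9.99 CPM at the promoter and 6.47 CPM in the intron. The annotation also lists Ppp1r3f, Gm36995 and Flicr for the promoter peak and Gm36995 for the intron peak.

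In 3 of the 5 genes 1 peak each rose 0.75 h after IL2, and the sequence at the centre of each is shown here because these 3 peaks carry the main result. They were read from RefSeq's GRCm38.p6, plus strand, as the 300 bases around each peak's centre. Capitals mark TTCNNNGAA and the Ikaros core TGGGAA, which appears as its reverse complement where it lies on the other strand. The Ikzf1 window is chr11:11731680-11731979, inside an intron and 45188 bases from the nearest annotated start to the edge of the peak. The Ikzf2 window is chr1:69550133-69550432, inside an intron, and its peak lies 133744 bases from the nearest start. The Ikzf3 window is chr11:98546433-98546732, and its peak lies 348 bases upstream of the start of the transcript Ikzf3-203, outside the gene.
Ikzf1 intron: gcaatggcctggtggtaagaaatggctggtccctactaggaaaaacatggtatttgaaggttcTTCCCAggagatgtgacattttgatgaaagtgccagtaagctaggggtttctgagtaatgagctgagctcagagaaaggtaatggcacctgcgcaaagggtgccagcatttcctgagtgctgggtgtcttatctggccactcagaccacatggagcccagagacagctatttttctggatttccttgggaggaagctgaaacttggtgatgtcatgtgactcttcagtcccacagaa
Ikzf2 intron: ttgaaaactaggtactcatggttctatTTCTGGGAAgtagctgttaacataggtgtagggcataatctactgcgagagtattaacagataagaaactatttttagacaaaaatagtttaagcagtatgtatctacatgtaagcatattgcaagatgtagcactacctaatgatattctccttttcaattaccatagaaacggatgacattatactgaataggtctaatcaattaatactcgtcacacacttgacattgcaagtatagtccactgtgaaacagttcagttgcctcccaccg
Ikzf3 upstream: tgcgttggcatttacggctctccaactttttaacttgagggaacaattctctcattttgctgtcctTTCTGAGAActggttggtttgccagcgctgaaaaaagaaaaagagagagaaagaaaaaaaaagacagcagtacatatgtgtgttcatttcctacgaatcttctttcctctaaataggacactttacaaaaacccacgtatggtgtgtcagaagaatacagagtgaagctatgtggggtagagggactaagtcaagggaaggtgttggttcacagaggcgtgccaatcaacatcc

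In the Ikzf1 peak the STAT letters lie 178 bases from the centre and so outside the window. They were found at chr11:11731647-11731655 and are shown with 10 bases on each side.
Ikzf1 intron, STAT letters: attctctcatTTCAAAGAAatgctaataa
In the Ikzf2 peak the STAT letters TTCTGGGAA, at chr1:69550160-69550168, contain the Ikaros core TGGGAA. In the Ikzf3 peak they read TTCTGAGAA and lie at chr11:98546499-98546507.

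At 0.75 h the comparison of IL2 with PBS asks which sites open soon after the cytokine. Of the 93 member peaks tested, 3 rose and 0 fell (edgeR's quasi-likelihood test with Benjamini-Hochberg adjustment over all tested peaks, threshold 0.05), where 0.488% of all tested peaks rose and 0.00896% fell. The 3 were 1 peak each of Ikzf1, Ikzf2 and Ikzf3. The remaining member of the 94, an Ikzf4 intron peak, did not pass the filter on low counts at this time. The median log2 fold change was 0.06 over the member peaks and -0.02 over all tested peaks. The groups did not overlap, with IL2 higher, in 10 of the 93 member peaks, against 6.47% of all tested peaks, and with IL2 lower in 7, against 5% of all tested peaks.

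The Ikzf1 intron peak (chr11:11731633-11732026) had 8.11, 5.69 and 4.56 CPM in the IL2 libraries at 0.75 h, against 0.781, 1.24 and 0.253 CPM in the PBS libraries. All 3 IL2 libraries lay above all 3 PBS libraries. The log2 fold change was 3.00 ± 0.49 (adjusted p = 0.00655). The 3 FP libraries of that time had 3.36, 3.47 and 2.31 CPM, between the other groups and without overlap with either. FP differed from PBS by 2.00 ± 0.49 on the log2 scale (adjusted p = 0.385) and from IL2 by -1.002 ± 0.443 (adjusted p = 1), so neither difference passed the test. A narrower peak beside it (chr11:11731396-11731551), named for its position, had 1.63, 2.95 and 2.57 CPM in IL2 libraries, against 1.23, 0.722 and 0.0505 CPM in PBS libraries, a difference of 1.80 ± 0.70 on the log2 scale that did not pass (adjusted p = 0.631).

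The Ikzf2 intron peak (chr1:69550151-69550413), in the gene that encodes Helios, had 6.35, 5.39 and 6.39 CPM in the IL2 libraries at 0.75 h, against 1.93, 1.80 and 1.01 CPM in the PBS libraries. The groups did not overlap, and the IL2 libraries were close to each other. The log2 fold change was 1.92 ± 0.38 (adjusted p = 0.0262). This call was lost when any 1 of the 6 IL2 and PBS libraries was left out, with log2 fold changes of 1.683 to 2.098 and adjusted p of 0.0549 to 0.162, and with the library total as a covariate (1.86, adjusted p = 0.0858). The FP libraries had 3.51, 2.63 and 2.58 CPM, above the PBS and below the IL2 libraries. FP differed from PBS by 0.87 ± 0.38 on the log2 scale (adjusted p = 1) and from IL2 by -1.05 ± 0.37 (adjusted p = 1).

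The Ikzf3 peak upstream of the gene (chr11:98546379-98546786), which the deposited annotation labels as promoter, had 8.62, 6.91 and 5.54 CPM in the IL2 libraries at 0.75 h, against 0.987, 1.19 and 0.202 CPM in the PBS libraries. Here too no IL2 library overlapped a PBS library. The log2 fold change was 3.13 ± 0.48 (adjusted p = 0.00395). The FP libraries had 3.85, 4.48 and 3.66 CPM, again between the other groups. FP differed from PBS by 2.32 ± 0.47 on the log2 scale (adjusted p = 0.194) and from IL2 by -0.81 ± 0.42 (adjusted p = 1). DESeq2 called the FP difference of this peak (adjusted p = 8.19e-04) and that of the Ikzf1 peak (adjusted p = 0.0215). With the replicate number as a block in edgeR's fit, the FP difference of the Ikzf3 peak passed (2.43 ± 0.44, adjusted p = 0.0216). That of the Ikzf1 peak did not pass with the block (adjusted p = 0.0665). These libraries are bulk, so more cells with an open site and a more open site in each cell cannot be told apart.

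**Figure D1:**
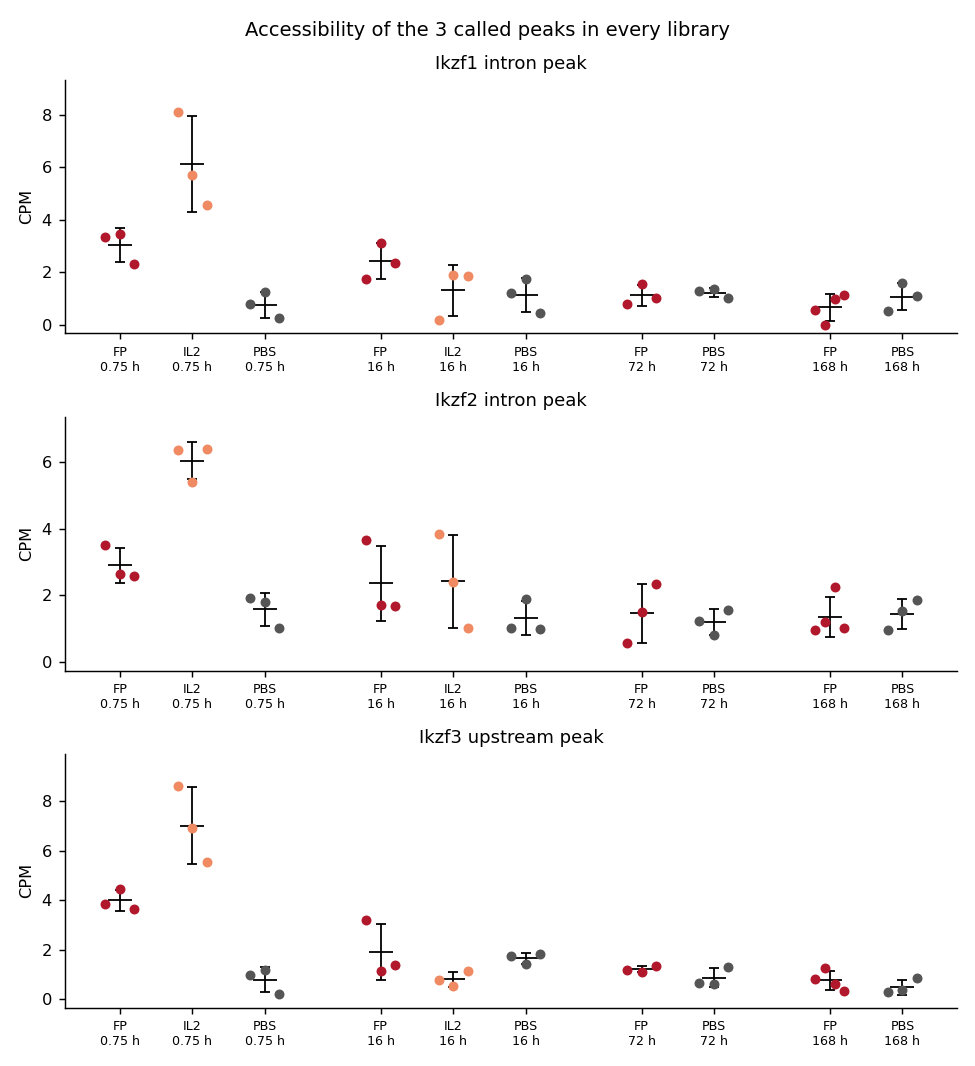
CPM of the 3 called peaks in every library, by group and time; points are libraries, the bar and whiskers are the mean and SD of the group. In each peak the 3 IL2 libraries at 0.75 h sit above the FP libraries and these above the PBS libraries of the same time.

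Markers of other cells and of Tregs were looked at in the same comparison. All 13 tested peaks of the myeloid markers were lower after IL2 than after PBS at 0.75 h, with a median log2 difference of -0.46. For the CD8 T cell markers 16 of 17 peaks were lower, with a median of -0.49. Over all tested peaks 48% had an effect above 0, and the median was -0.02. The CD8 peaks lie at 2 genes, and the myeloid list has peaks at 5 of its 8 genes, so these are not many separate markers. Among both lists 0 peaks passed the test, and 0 had an unadjusted p under 0.05. Summed over the list, the myeloid markers had 53.0 to 83.6 CPM in IL2 libraries and 50.1 to 112.2 CPM in PBS libraries, and the CD8 markers had 64.8 to 87.2 CPM in IL2 libraries and 68.2 to 124.6 CPM in PBS libraries, so the groups overlapped. The erythroid markers had 95.8 to 131.7 CPM in IL2 libraries and 85.4 to 105.5 CPM in PBS libraries, with overlap. Of their 33 tested peaks 14 were higher and 19 lower after IL2, with a median of -0.31. An unadjusted p under 0.05 was reached by 15, where 5.74% of all tested peaks did. Among the 33, 1 rose, at Hbb-bt, a beta globin gene, where 0.488% of all tested peaks rose. With FP against PBS at 0.75 h 30 of these 33 peaks were higher, with a median of 0.43, and 1 had an unadjusted p under 0.05. With FP against IL2 18 of the 33 were higher and 15 lower, with a median of 0.91. In that comparison 19 had an unadjusted p under 0.05, where 3.66% of all tested peaks did. Neither of these FP comparisons had an erythroid peak past the test. Of the NK cell markers 14 of 18 peaks were lower and of the B cell markers 4 of 5, and among the B cell genes Ms4a1 and Cd79b had no peak. The Treg markers had 485.1 to 558.1 CPM in IL2 libraries and 419.3 to 482.5 CPM in PBS libraries, without overlap. Of their 103 tested peaks 69 were higher after IL2 (48% of all tested peaks), with a median of 0.34. Among the 103, 11 had an unadjusted p under 0.05 (5.74% of all tested peaks) and 1 rose, at Nrp1 (0.488% of all tested peaks). The part of these cells in the results was not tested.

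The 3 effects were followed to later times, each against PBS of the same time. At 16 h the Ikzf3 peak had 0.766, 0.533 and 1.13 CPM in IL2 libraries, against 1.74, 1.41 and 1.81 CPM in PBS libraries. The IL2 libraries were now the lower ones, without overlap, but the difference of -1.03 ± 0.56 did not pass (adjusted p = 1). The difference between the IL2 effects of both times was itself tested in 1 fit of all 31 libraries. The effect at 16 h was lower than that at 0.75 h by -4.16 ± 0.75 on the log2 scale (adjusted p = 0.0195), where 0.0411% of all tested peaks showed such a fall. This call was lost without IL2 replicate 1 or PBS replicate 3 of 0.75 h, or without IL2 library c1 or c2 of 16 h, with adjusted p of 0.0711 to 0.0787. For the same peak the FP effect differed by -2.12 ± 0.73 between 16 h and 0.75 h (adjusted p = 1).

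At 16 h the Ikzf1 peak had 1.76, 3.13 and 2.37 CPM in FP libraries, 0.192, 1.90 and 1.85 CPM in IL2 libraries and 1.20, 1.76 and 0.453 CPM in PBS libraries. The highest library was an FP one, and the FP group overlapped both other groups. FP differed from PBS by 1.11 ± 0.64 on the log2 scale (adjusted p = 0.974) and IL2 from PBS by 0.23 ± 0.64 (adjusted p = 1). Its IL2 effect differed by -2.77 ± 0.93 between 16 h and 0.75 h, which did not pass (adjusted p = 0.534). The Ikzf2 peak at 16 h had 3.67, 1.72 and 1.69 CPM in FP libraries, 3.83, 2.40 and 1.04 CPM in IL2 libraries and 1.03, 1.90 and 1.01 CPM in PBS libraries, and all 3 groups overlapped. Its IL2 effect differed by -1.03 ± 0.70 between both times (adjusted p = 1).

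At 72 h and 168 h the 3 peaks were low in both groups. At 72 h the Ikzf1 peak had 0.780 to 1.56 CPM in FP libraries and 1.03 to 1.36 CPM in PBS libraries. The Ikzf2 peak had 0.562 to 2.33 CPM in FP libraries and 0.814 to 1.57 CPM in PBS libraries, and the Ikzf3 peak had 1.10 to 1.36 CPM in FP libraries and 0.633 to 1.32 CPM in PBS libraries. At 168 h FP replicate 2, one of the shallow libraries, held 0 counts at the Ikzf1 peak, which at 3 counts allows up to 0.255 CPM there; this limit covers counting error only. The groups of each peak overlapped at both times. At 168 h the FP effects were -0.66 ± 0.84 for Ikzf1, -0.12 ± 0.50 for Ikzf2 and 0.51 ± 0.72 for Ikzf3 on the log2 scale, none past the threshold.

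**Figure D2:**
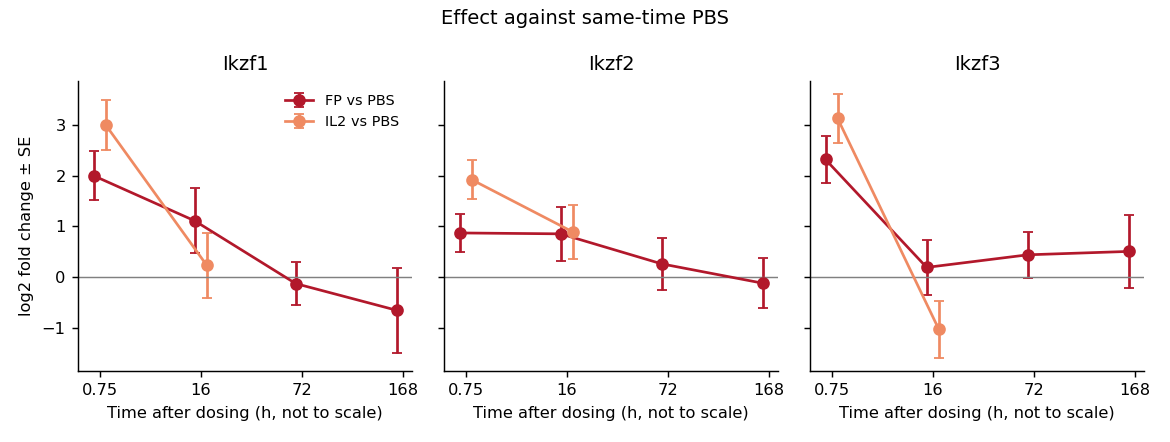
Log2 fold change against PBS of the same time, with its SE, for the called peaks of Ikzf1, Ikzf2 and Ikzf3; the time axis is not to scale and IL2 libraries were analysed at 0.75 h and 16 h only. The IL2 effects at 0.75 h are 3.00, 1.92 and 3.13, and those at 16 h are 0.23, 0.89 and -1.03.

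In the other comparisons against PBS and between both treatments no member peak passed. FP against PBS at 0.75 h had 0 of 93, where 0.00199% of all tested peaks rose, and FP against IL2 at 0.75 h had 0 of 93, where 0% of all tested peaks were called. At 16 h IL2 against PBS had 0 of 94 (0% of all tested peaks), FP against PBS 0 of 94 (0.114% of all tested peaks rose) and FP against IL2 0 of 94 (0.141% rose). FP against PBS had 0 of 94 at 72 h and at 168 h, where again 0% of all tested peaks were called. By DESeq2 these counts were 2 for FP against PBS at 0.75 h and 1 for FP against IL2 at 16 h, and 0 in the others. In both of these comparisons DESeq2 also called many more rises over all peaks than edgeR, with the counts given in the closing section. With the replicate number as a block, 1 member peak rose for FP against PBS at 0.75 h, where 127 of all 100468 tested peaks rose.

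Looser counts show how the whole set of member peaks lay. An unadjusted p under 0.05 was reached at 0.75 h by 11 of 93 member peaks for IL2 against PBS (5.74% of all tested peaks), 7 for FP against PBS (3.15%) and 4 for FP against IL2 (3.66%). At 16 h it was reached by 4 of 94 for IL2 against PBS (3.62%), 6 for FP against PBS (5.31%) and 5 for FP against IL2 (5.05%). FP against PBS had 1 such peak at 72 h (5.21%) and 2 at 168 h (4.54%).

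The effect was above 0 in 51 of 93 member peaks for IL2 against PBS at 0.75 h (48% of all tested peaks), in 54 for FP against PBS (51.4%) and in 40 for FP against IL2 (51.7%). At 16 h it was above 0 in 69 of 94 for IL2 against PBS (50.4%), with a median of 0.18 against 0.0037 over all tested peaks. It was above 0 in 54 for FP against PBS at 16 h (48.5%) and in 37 for FP against IL2 (48.6%), then in 42 for FP against PBS at 72 h (46.9%) and in 59 at 168 h (49.3%). Peaks that overlap share reads, so these counts are not counts of separate sites.

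FP and IL2 did not overlap at 0.75 h, with FP lower, in 15 of 93 member peaks (4.9% of all tested peaks), of which 8 belong to Ikzf2 and 4 to Ikzf1, and with FP higher in 3 (4.45%). FP and PBS of that time were apart with FP higher in 7 (4.84%) and lower in 5 (3.58%). At 16 h IL2 was apart from PBS and higher in 11 of 94 (4.74%), 7 of them in Ikzf1, and lower in 2 (4.33%). FP was apart from PBS and higher in 5 (6.92%) and lower in 5 (5.46%), and apart from IL2 and higher in 5 (5.55%) and lower in 4 (5.01%). At 72 h FP was apart from PBS and higher in 2 (6.21%) and lower in 4 (5.31%), and at 168 h higher in 4 (3.55%) and lower in 1 (2.69%).

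The member peaks lay mostly inside the genes: 28 of 40 Ikzf1 peaks, 27 of 38 Ikzf2 peaks and 6 of 11 Ikzf3 peaks were labelled as intron. Ikzf1 and Ikzf2 each hold a stack of overlapping peaks in an intron, and 25 of the 94 peaks overlap another member, which leaves 72 separate regions. Reads in an overlap were counted in each peak, so such peaks are not separate measurements. Mean levels over the 31 libraries ran up to 36.5 CPM in Ikzf1, 20.5 CPM in Ikzf2, 8.70 CPM in Ikzf3, 15.1 CPM in Ikzf4 and 24.5 CPM at the single peak of Ikzf5.

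**Figure D3:**
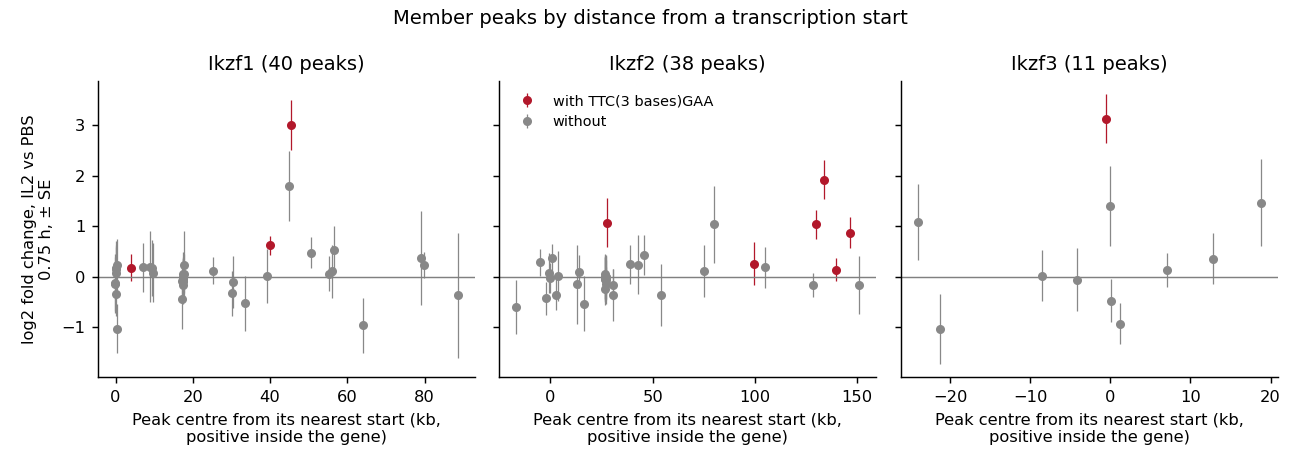
Log2 fold change of IL2 against PBS at 0.75 h, with its SE, for each Ikzf1, Ikzf2 and Ikzf3 peak by the distance of its centre from the nearest annotated start, in kb; red points hold TTCNNNGAA. The called peaks reach 3.00 in Ikzf1 and 1.92 in Ikzf2 far inside the genes, and 3.13 in Ikzf3 just outside the gene.

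The most abundant Ikzf1 peak, in an intron (chr11:11725925-11726733), had 63.9, 63.0 and 64.7 CPM in the IL2 libraries at 0.75 h, against 44.3, 46.5 and 33.5 CPM in the PBS libraries, without overlap. The log2 fold change was 0.62 ± 0.19 and did not pass (adjusted p = 0.293). At 0.75 h same-numbered IL2 and PBS libraries deviated together, and with the replicate number as a block 5 of 93 member peaks rose, this one among them (0.64 ± 0.15, adjusted p = 0.0288). With the block 941 of all 100468 tested peaks rose, against 490 without it. The FP libraries of 0.75 h, with 44.8, 47.6 and 35.0 CPM, overlapped the PBS libraries. At 16 h FP libraries had 43.4, 39.6 and 43.2 CPM, IL2 libraries 24.4, 35.5 and 30.9 CPM and PBS libraries 31.02, 20.59 and 28.03 CPM. FP lay above PBS without overlap by 0.66 ± 0.20 on the log2 scale, which did not pass (adjusted p = 0.413).

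An Ikzf2 intron peak (chr1:69554076-69554781), the other one added by the block and named for that, had 18.3, 17.0 and 12.7 CPM in IL2 libraries at 0.75 h, against 8.55, 8.35 and 6.31 CPM in PBS libraries. The groups did not overlap, and the log2 fold change was 1.04 ± 0.29 (adjusted p = 0.188). At 16 h it had 10.2, 9.28 and 10.3 CPM in FP libraries, 3.91, 4.39 and 5.97 CPM in IL2 libraries and 6.44, 4.08 and 4.48 CPM in PBS libraries. The FP libraries lay above both other groups. FP differed from IL2 by 1.06 ± 0.30 (adjusted p = 0.310) and from PBS by 0.98 ± 0.30 (adjusted p = 0.443) on the log2 scale. DESeq2 called the difference from IL2.

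No member peak that overlaps an annotated start passed the test; the called Ikzf3 peak lies outside its start. Several Ikzf1 peaks overlap a start. The most abundant of them (chr11:11685583-11686427) had 15.3, 4.56 and 14.1 CPM in IL2 libraries at 0.75 h, against 22.5, 6.34 and 14.1 CPM in PBS libraries. Replicate 2 was the lowest library in both groups, and the groups overlapped (-0.34 ± 0.44, adjusted p = 1.00). The Ikzf2 promoter peak (chr1:69686858-69688018), the most abundant of Helios, had 23.0, 13.7 and 28.1 CPM in IL2 libraries, against 25.9, 13.8 and 26.3 CPM in PBS libraries (-0.02 ± 0.29, adjusted p = 1.00). At 16 h the same peak had 22.0, 24.0 and 38.5 CPM in IL2 libraries, against 18.01, 18.34 and 20.18 CPM in PBS libraries, without overlap and without passing the test (0.57 ± 0.23, adjusted p = 1).

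The most abundant Ikzf3 peak over a start (chr11:98545682-98546227) lies next to the called one. It had 1.502, 2.129 and 2.158 CPM in IL2 libraries at 0.75 h, against 3.37, 2.42 and 2.22 CPM in PBS libraries. Here IL2 was the lower group, without overlap, while the peak upstream was higher after IL2. The log2 fold change of the peak over the start was -0.48 ± 0.42 (adjusted p = 1.00). Another Ikzf3 peak over a start (chr11:98477110-98477842) had 1.80, 2.52 and 0.814 CPM in IL2 libraries. Its PBS libraries had 0.822, 1.08 and 0 CPM, so the groups overlapped, and it did not pass. The most abundant Ikzf3 peak, in an intron (chr11:98469854-98470893), had 6.82, 12.6 and 7.17 CPM in IL2 libraries, against 5.71, 11.5 and 6.87 CPM in PBS libraries (0.13 ± 0.33, adjusted p = 1.00), and the groups overlapped.

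The most abundant Ikzf4 peak, over an exon of Eos (chr10:128636651-128637484), had 6.99, 9.95 and 8.71 CPM in IL2 libraries at 0.75 h, against 14.4, 16.5 and 11.3 CPM in PBS libraries. IL2 was lower without overlap, by -0.72 ± 0.26 on the log2 scale, and did not pass (adjusted p = 0.515). At 16 h the order was turned, with 16.2, 18.4 and 18.6 CPM in IL2 libraries, against 13.2, 9.35 and 14.5 CPM in PBS libraries (0.51 ± 0.25, adjusted p = 1). The difference of the IL2 effects between both times was 1.24 ± 0.35 and did not pass (adjusted p = 0.339). The Ikzf4 peak at the start (chr10:128645471-128646020) had 6.14, 4.34 and 3.09 CPM in IL2 libraries at 0.75 h, against 2.59, 2.73 and 3.79 CPM in PBS libraries (0.57 ± 0.38, adjusted p = 1.00), with overlap.

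The Ikzf5 peak (chr7:131410034-131410953) lies over the start of the gene, and the annotation lists Acadsb and Fgfr2 for it too. At 72 h it had 43.2, 37.1 and 34.3 CPM in FP libraries, against 26.6, 33.0 and 26.0 CPM in PBS libraries. At 168 h it had 26.8, 24.0, 24.7 and 27.6 CPM in FP libraries, against 22.9, 21.4 and 21.8 CPM in PBS libraries. FP was higher without overlap at both times, by 0.40 ± 0.16 (adjusted p = 0.930) and 0.22 ± 0.15 (adjusted p = 0.899) on the log2 scale, and neither passed.

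Summed over all peaks of a gene, 0 of 5 genes passed in any of the 8 comparisons by edgeR; an unadjusted p was under 0.05 for Ikzf1 after FP at 16 h (0.0343) and Ikzf5 after FP at 72 h (0.0473). Of all genes, 0.0473% rose at 0.75 h after IL2, and at 16 h 0.0197% rose and 0.00393% fell with FP against PBS and 0.0275% rose with FP against IL2. The Ikzf1 sum was 209.9 ± 9.98 CPM in IL2 libraries and 178.5 ± 18.5 CPM in PBS libraries at 0.75 h (SD, n = 3 each), a log2 difference of 0.24 ± 0.18 (edgeR, adjusted p = 1). The Ikzf2 sum was 193.2 ± 2.1 CPM in IL2 libraries and 174.2 ± 7.71 CPM in PBS libraries (SD, n = 3 each), a log2 difference of 0.16 ± 0.14 (edgeR, adjusted p = 1). At 0.75 h the Ikzf3 sum averaged 32.6 CPM after IL2 and 25.2 CPM after PBS, and the Ikzf4 sum 14.5 CPM after IL2 and 18.2 CPM after PBS. At 72 h the Ikzf4 sum averaged 33.5 CPM in FP libraries and 26.2 CPM in PBS libraries, the highest of its times in both groups. Differences between times within a group were not tested, and time cannot be told apart from date.

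**Figure D4:**
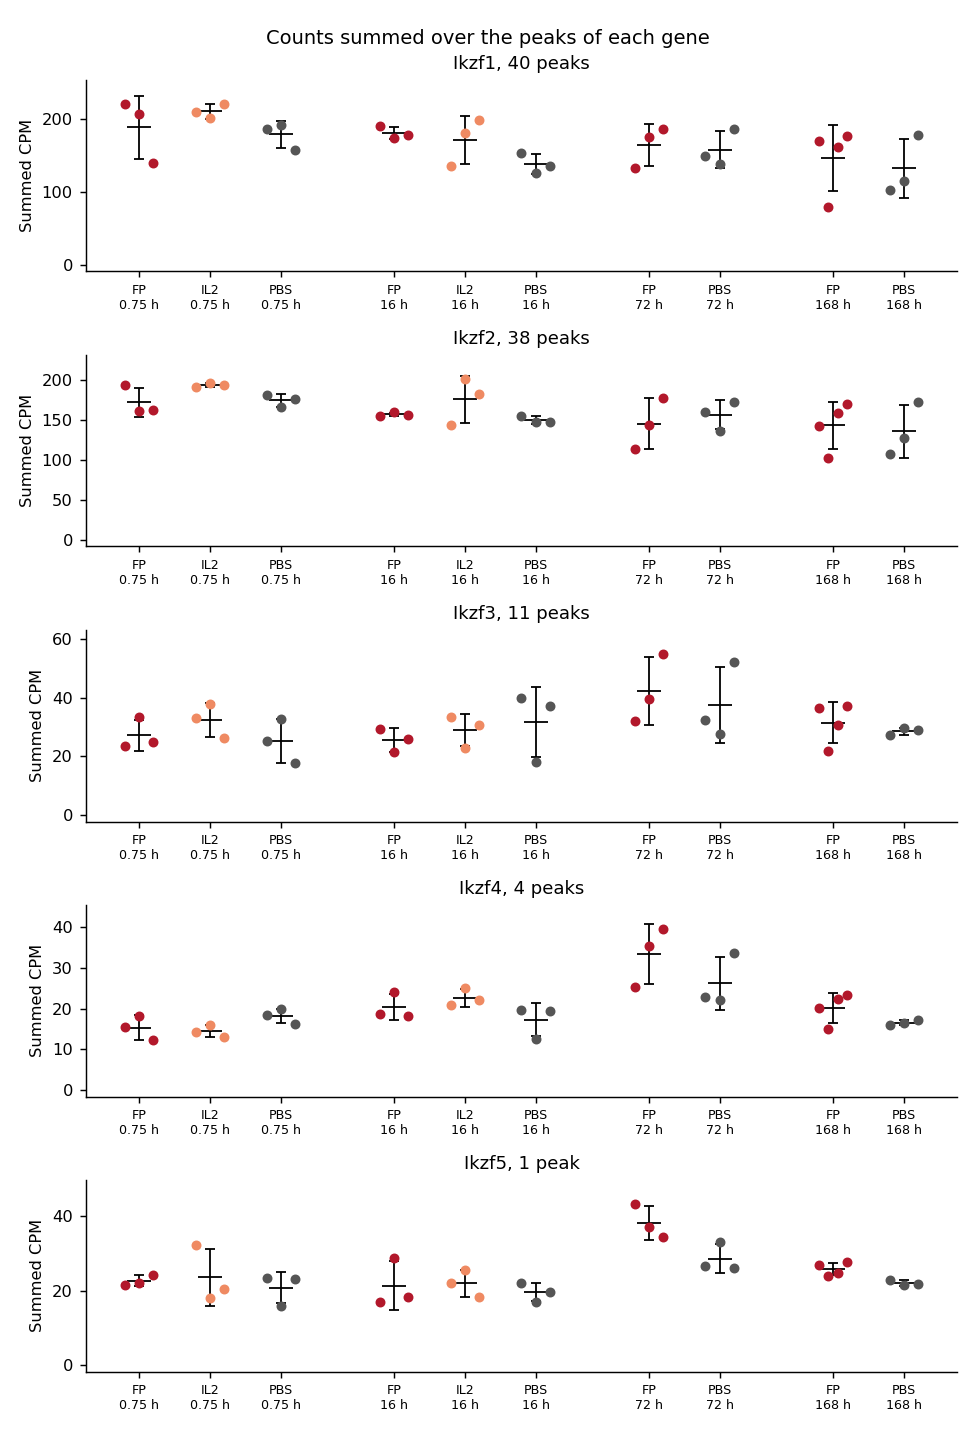
Summed CPM of the peaks of each gene in every library, by group and time; points are libraries, the bar and whiskers are the mean and SD. The IL2 libraries at 0.75 h average 209.9 CPM for Ikzf1 against 178.5 CPM in PBS libraries, and 1 FP library at 168 h lies at 79.5 CPM.

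A few more member peaks, chosen after their values were seen, had groups that did not overlap. At the 3' end of Ikzf2 (chr1:69537485-69538221) FP libraries had 10.1, 5.97 and 6.87 CPM, IL2 libraries 7.12, 7.43 and 6.60 CPM and PBS libraries 3.86, 3.30 and 4.34 CPM at 0.75 h. Both treated groups lay above PBS, FP by 0.99 ± 0.30 (adjusted p = 0.899) and IL2 by 0.87 ± 0.30 (adjusted p = 0.476) on the log2 scale. In an Ikzf1 intron (chr11:11711381-11712236) IL2 libraries had 10.5, 9.29 and 9.61 CPM at 16 h, against 5.58, 2.81 and 5.49 CPM in PBS libraries, a log2 difference of 1.06 ± 0.33 (adjusted p = 1). In an Ikzf2 intron (chr1:69630037-69630332) FP was the lower group at 16 h, with 0.516, 1.10 and 0.172 CPM in FP libraries, against 2.11, 2.88 and 1.31 CPM in PBS libraries, a log2 difference of -1.81 ± 0.65 (adjusted p = 0.635).

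The letters TTCNNNGAA, which read the same on both strands, were found in 12 of the 94 member peaks (12.8%), against 13.3% of all peaks. All 3 called peaks were among the 12. At 0.75 h the IL2 effect was above 0 in 12 of the 12 peaks with the letters, with a median log2 fold change of 0.75, and in 39 of the 81 tested peaks without them, with a median of -0.0033. Over all tested peaks the medians were 0.14 with the letters, where 3.02% rose, and -0.05 without them, where 0.0831% rose. These counts cover whole peaks, while the planned search covered the 300 bases around each centre. By that search 9 member peaks had the letters in their window, with a median of 0.62, and 2 of these peaks rose. An Ikzf2 promoter peak of 74 bases is among the 9, and its letters lie in the window but outside the peak. Of the 84 tested without the letters in the window, with a median of 0.0054, 1 rose, the Ikzf1 peak. Over all tested peaks 3.21% rose with the letters in the window and 0.164% without. The 12 peaks were wider, with a median of 670.5 against 260 bases, and more abundant, with a median of 4.45 against 2.49 CPM; the part of width and level in this difference was not tested. None of the 12 overlaps another member peak, while 25 of the 82 others do.

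Of the intron sites with these letters that did not reach the threshold at 0.75 h, the 3 with the largest IL2 effects are shown for comparison with the called sites, 10 bases on each side; they were chosen after their values were seen.
Ikzf2 intron, chr1:69656753-69656761: aaaatggtaaTTCTAAGAAtttaactaga
Ikzf2 intron, chr1:69554683-69554691: ctaagtataaTTCTAAGAAgataagttac
Ikzf1 intron, chr11:11726253-11726261: atttcatcatTTCCCAGAAggggcactca
IL2 differed from PBS by 1.07 ± 0.49 on the log2 scale at the first site's peak (edgeR, adjusted p = 0.832), where the groups overlapped. The difference was 1.04 ± 0.29 at the peak of the second site and 0.62 ± 0.19 at that of the third, both without overlap. The first pair share TTCTAAGAA.

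For FP the median effect of the 12 peaks was 0.38 at 0.75 h, with 9 above 0, and 0.63 at 16 h, with 11 above 0. The member peaks without the letters had medians of 0.06 and 0.04 at those times. Over all tested peaks the FP medians were 0.10 with the letters and -0.0010 without them at 0.75 h, and 0.11 with and -0.04 without at 16 h. For IL2 at 16 h the medians were 0.28 with the letters and 0.17 without them in member peaks, and 0.03 with and -0.0017 without over all tested peaks. For FP at 72 h they were 0.23 with and -0.12 without in member peaks, and 0.03 with and -0.04 without over all. At 168 h they were -0.04 with and 0.16 without in member peaks, and 0.0099 with and -0.01 without over all. The comparisons within a time share their PBS libraries.

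**Figure D5:**
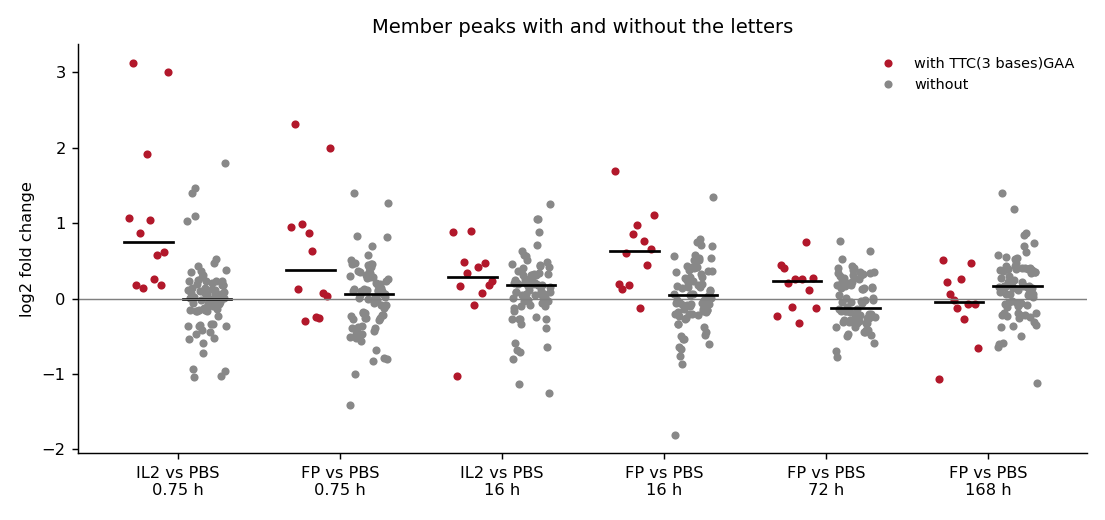
Log2 fold change of each member peak against PBS of the same time, for peaks with and without TTCNNNGAA; points are peaks and the bars are medians. At 0.75 h after IL2 the 12 peaks with the letters are all above 0, with a median of 0.75.

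The Ikaros core TGGGAA, on either strand, was in 28.7% of the member peaks and 27.7% of all peaks. The AP-1 letters TGANTCA were in 10.6% of member peaks and 13.2% of all peaks, and the RUNX letters TGTGGTT in 13.8% and 12.3%. The forkhead letters TGTTTAC were in 2.13% of member peaks and 5.87% of all peaks. The ETS letters CCGGAAGT were in 0 of the 94 member peaks and 2.60% of all peaks, and the NF-kB letters searched were in 0 of the 94 and 1.77% of all peaks.

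Genes that work with the family were followed in 3 lists. Of 18 corepressor genes that Ikaros proteins recruit, such as the Mi-2 remodeller Chd4 and the histone deacetylases Hdac1 and Hdac2, 0 of 100 tested peaks passed at 0.75 h after IL2 (4 at an unadjusted p under 0.05), with a median log2 fold change of 0.09. The 5 genes of the cereblon ubiquitin ligase, through which thalidomide-type drugs degrade Ikaros and Aiolos, had 0 of 39 peaks called (0 unadjusted), with a median of 0.12. Of all tested peaks 0.488% rose in this comparison and 5.74% had an unadjusted p under 0.05, with a median of -0.02. At that share of rises, 0 calls in lists of this size say little about them. Neither list had a call in the other comparisons. Of 12 reported target genes, 5 of 141 peaks rose after IL2 at 0.75 h, where 0.488% of all tested peaks rose. All 5 were at Bcl2, which encodes a survival protein, with log2 fold changes of 1.01 to 2.16. After FP 1 of 141 rose at 0.75 h, where 0.00199% of all tested peaks rose, again at Bcl2 (1.69 ± 0.22, adjusted p = 0.0175). At 16 h 2 Bcl2 peaks of the 141 rose with FP against PBS (1.952 ± 0.276 and 1.147 ± 0.227), where 0.114% of all tested peaks rose. With FP against IL2 at 16 h 1 of 141 rose, a Bcl2 peak (1.77 ± 0.27, adjusted p = 0.00387), where 0.141% of all tested peaks rose.

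Peaks elsewhere with the most similar course over the 31 libraries, after centring each time, were ranked by Pearson's r among 53708 peaks with a mean log2 CPM of at least 1. For the called Ikzf1 peak they included peaks at Fam107b (0.821) and Gm22338 (0.812). For the called Ikzf2 peak they were at Mdfic (0.807), Tec (0.768) and Cdk17 (0.750), and for the called Ikzf3 peak at Sgpp1 (0.844), Jazf1 (0.821) and Sipa1l2 (0.806). For the most abundant Ikzf4 peak they were at Gpr132 (0.861), Raet1e (0.841) and Prkch (0.817). For the Ikzf5 peak they were at Gm47561 (0.783), Asb2 (0.770) and Ifi27 (0.752). These are descriptions over libraries that differ in depth, which all peaks of a library share.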

How the data were processed

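Nuclei of sorted Tregs were assayed by ATAC-seq. Per the submitters' processing notes, BWA and MACS2 2.1.2 were used with GRCm38 (mm10). How the reads were counted is not given in the sources used here. Whole-number counts per peak and library, not normalized, fill the deposited table. Its first sample column, listed as an other unit because commas in gene names shift it, was deposited as counts too; its lines were split from the right. The number of sample columns without a group was 0. The authors named changed regions with DESeq2 at p under 0.05, per the series' design text.

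Groups came from the sample titles. The treatment protocol gives 0.75 h for all samples, so later times rest on the titles. At 16 h the columns match groups but not samples, so those libraries are called c1 to c3. The labels mention 2 technical replicates per sample, which are not separate in the table.

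All groups of a time were fitted together with edgeR 4.0.16 in R 4.3.3 (TMM, filterByExpr with minimum count 10 and minimum total 15, quasi-likelihood F test, Benjamini-Hochberg over all tested peaks, threshold 0.05). The SE is the size of the log2 fold change divided by the square root of F. Common dispersions gave coefficients of biological variation of 43.3% at 0.75 h, 41.01% at 16 h, 38.6% at 72 h and 48.01% at 168 h. Gene sums were fitted in the same way, and since a peak with several genes enters several sums, their levels are sums of peak CPM. Alternatives were other scalings, DESeq2 1.42.0, a library total covariate, a replicate block and leaving out each library. Figures were made with Python 3.11.15 and matplotlib 3.10.9.

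At 0.75 h the same-numbered IL2 and PBS libraries deviated together (correlations of 0.164, 0.385 and 0.137), so the fit with the replicate number as a block is given beside results it changes. The values printed are otherwise from the fit without the block. This pairing comes from the data, not from the labels. Sequences and the annotated starts came from RefSeq's GRCm38.p6 genome and GENCODE's annotation of that build.

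Peaks described in every library were those called, the most abundant peak of each gene and the one nearest to a start. Where several peaks overlapped a start, the most abundant of them was taken. Members and lists were chosen with earlier results of these data known. Windows at the starts of Ikzf4 and Ikzf5 overlap untranslated exons and are not shown. Values for 1 similar peak and 1 marker gene are not reported here.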

Additional observations from a re-analysis of the deposited data

Results flagged for a closer look

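The IL2 effect on the Ikzf3 upstream peak differed between 16 h and 0.75 h by -4.16 ± 0.75 on the log2 scale (edgeR, adjusted p = 0.0195), the difference itself being tested. At 168 h the FP library of replicate 2 stood apart from the other 3 FP libraries in the Ikzf1 sum, with 79.5 CPM where the group's median was 165.4 CPM. It is one of the shallow libraries, with 12316912 counts, and the part of depth was not tested. A total of 16 such groups were looked at, and chance flags about 1 in 20.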

How the results depend on the processing

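The rises of the Ikzf1 and Ikzf3 peaks 0.75 h after IL2 kept their direction and passed under all 18 alternatives, with log2 fold changes of 2.60 to 3.52 and 2.68 to 3.51. The Ikzf2 peak kept its direction and passed under 10 of 18. It did not pass with any 1 IL2 or PBS library left out, with the library total as a covariate (adjusted p = 0.0858) or in 1 fit of all 31 libraries (adjusted p = 0.0789). With the replicate block, the pairing raised the count of risen member peaks at 0.75 h to 5 after IL2 and to 1 after FP, the Ikzf3 peak (adjusted p = 0.0216). At 0.75 h same-numbered FP and PBS libraries had correlations of 0.001, 0.405 and 0.272. Other pairs of FP and PBS libraries ran from -0.352 to 0.114, so both ranges overlapped. The block changed no other count of member calls. DESeq2 gave 2 for FP against PBS at 0.75 h and 1 for FP against IL2 at 16 h. The count of differences between times was 0 to 1 with single libraries left out. The causes were not tested. Over all peaks, the 490 rises after IL2 at 0.75 h were 1000 by DESeq2, 941 with the block, 286 with the covariate and 187 to 582 with single libraries left out. The 9 falls were 94 by DESeq2 and 42 with the block. The 2 rises after FP at 0.75 h were 205 by DESeq2, 127 with the block, 10 with no filter, 5 with library totals and 0 to 25 with single libraries left out. The 115 rises after FP at 16 h were 410 by DESeq2, 188 with the 2 groups only and 54 with library totals and 37 to 142 with single libraries left out. The 142 of FP over IL2 were 455 by DESeq2, 62 with library totals, 34 with the covariate and 38 to 180 with single libraries left out. For FP at 72 h the 0 rises were 66 by DESeq2 and 85 with the covariate, and at 168 h 9 and 10. Each group holds 3 or 4 libraries and the called peaks are low in PBS, which limits the precision of their fold changes. No paired analysis was possible at 16 h because the column numbers there are not those of the titles.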
